A study of Caenorhabditis elegans with 4 samples.

Results

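The genes described here are 10 glutathione S-transferase genes of Caenorhabditis elegans, gst-1, gst-4, gst-5, gst-6, gst-7, gst-13, gst-30, gst-35, gst-38 and gst-39. They are the genes with a gst name in the deposited tables that lie outside the gst-12 gene cluster of chromosome II. They are 10 of the 302 gene names that the 4 tables hold. RNA-seq libraries were made from populations of whole young adult worms in 4 groups of 1 library each. The groups were strain VZ1 stressed for 5 h in 10 mM sodium arsenite (NaAs), VZ1 left unstressed, strain N2 under the same stress, and unstressed N2, all grown on the bacterial food OP50. N2 is the wild type, and VZ1 is known to carry a trx-1 deletion, which removes a thioredoxin of the ASJ sensory neurons. No group has a replicate, so no difference below has a replicate check. The series' title names the transcription factor SKN-1 as what TRX-1 acts on. The genes were chosen from those that the deposited tables list, with earlier results of these data known. Whether SKN-1 drives any of the 10 genes was not tested.

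Glutathione S-transferases are enzymes that join the tripeptide glutathione to reactive or oxidised compounds, which makes these soluble and marks them for export from the cell. Arsenite binds thiols and raises oxidants, and in worms this brings SKN-1, the counterpart of mammalian Nrf2, into the nuclei of the intestine, where it switches on genes of glutathione synthesis and conjugation. Of the 10 genes gst-4 is the best known, since its promoter fused to a fluorescent protein is a standard reporter of SKN-1 activity, and gst-7 is also known as a SKN-1 target. GST-1 is a pi-class enzyme related to human GSTP1. For the remaining members a role beyond the enzyme family is not stated here.

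The tables are lists of loci that the authors marked as different between 2 libraries, with an FPKM value (fragments scaled to exon length and to the number of mapped fragments) for each library. A gene that is not in a table has no value there. All 10 genes are in the stress table of N2 and 9 of them, without gst-30, in that of VZ1, each higher in stressed animals. The genes were chosen from those listed, so that nothing is read from these counts. Across the whole stress tables, 0.610% of 14420 genes tested were marked as higher in stressed VZ1 and 0.799% of 14397 in stressed N2. In the authors' deposited tables, 8 of the 9 genes in VZ1 and 9 of the 10 in N2 have the smallest p-value that these tables list, 5e-05, and so have 65 of all 106 loci in the VZ1 table and 98 of all 151 in the N2 table.

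All 10 genes code for proteins of nearly the same size, 206 to 218 amino acids by the coding lengths of the WBcel235 annotation (Ensembl release 115). In that annotation 7 of them have 2 exons, gst-1 and gst-13 have 3, and gst-4 has 4. Their exon lengths there are 702 to 852 bases. The annotation behind the deposited FPKM was not given and differs from this one. The deposited locus of gst-38, for example, is 688 bp wide, shorter than its 852 exon bases. The merged loci of gst-1 in VZ1 (5362 bp) and of gst-5 (4009 bp in N2) also hold another gene. Whether the FPKM of the members were scaled to similar lengths is therefore unknown. The letters of their promoters and proteins were not used here.

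The highest level belonged to gst-4 (chromosome IV, 10142210 to 10142978 in build ce10, as for all positions below). Where a locus differs between the stress tables, the position given is that of N2. It stood at 8744 FPKM in stressed VZ1 against 76.8 FPKM in unstressed VZ1, and at 7025 FPKM in stressed N2 against 105 FPKM in unstressed N2. These are rises of 114-fold in VZ1 and 66.7-fold in N2. In both stressed libraries gst-4 had the highest FPKM of all the loci in the table.

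Another 4 of the genes followed it directly, so that the 5 highest levels in each stressed library, among the loci of its stress table, were all of glutathione S-transferase genes. The gene gst-1 (chromosome III, 9059267 to 9059996) had 4788 FPKM in stressed and 224 FPKM in unstressed VZ1, and 4048 FPKM in stressed and 270.3 FPKM in unstressed N2. For gst-5 (chromosome II, 10947477 to 10951485) the levels were 4669 and 103 FPKM in stressed and unstressed VZ1, and 4551 and 106 FPKM in stressed and unstressed N2. The rise of gst-1 was 21.3-fold in VZ1 and 14.97-fold in N2, and that of gst-5, from a lower level before stress, was 45.4-fold in VZ1 and 43.1-fold in N2. Both values are affected by merged loci. In VZ1 the locus of gst-1 also covers cls-2, a gene of a microtubule-binding protein, and starts at 9054635, while in N2 it holds gst-1 alone. In both tables the locus of gst-5 also covers R03D7.5, named gskl-1 in RefSeq. Each such locus has 1 value per library, which cannot be divided between its genes.

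The neighbours gst-6 (chromosome II, 4879902 to 4880972) and gst-7 (4882105 to 4883278) lie 1132 bp apart by their loci in N2 and started from similar levels. In VZ1 the locus of gst-7 starts at 4881754, nearer to gst-6. Stressed and unstressed VZ1 had 3931 and 126 FPKM of gst-7, and stressed and unstressed N2 had 4404 and 139.7 FPKM. For gst-6 the values were 779 and 106 FPKM in stressed and unstressed VZ1, and 717 and 111 FPKM in stressed and unstressed N2. So gst-7 rose 31.1-fold in VZ1 and 31.5-fold in N2, while its neighbour rose 7.38-fold in VZ1 and 6.49-fold in N2, the smallest rise of the 9 members listed in VZ1 and of the 10 listed in N2. The gene gst-13 (chromosome II, 9231461 to 9232196) had the second highest level of the members before stress, after gst-1. It had 2063 FPKM in stressed and 160.03 FPKM in unstressed VZ1, and 1829 FPKM in stressed and 211 FPKM in unstressed N2, rises of 12.9-fold in VZ1 and 8.67-fold in N2.

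The other 4 genes were at low or moderate levels without stress. The gene gst-38 (chromosome V, 15915223 to 15915910) stood at 3439.5 FPKM in stressed and 13.6 FPKM in unstressed VZ1, and at 3730.4 FPKM in stressed and 14.01 FPKM in unstressed N2. Its rises, 253-fold in VZ1 and 266-fold in N2, were the largest fold of any locus with a value above 0 in both libraries in the VZ1 table, and the second largest in the N2 table. The largest in N2 was that of gst-30 (chromosome II, 4933922 to 4935002), with 1238 FPKM in stressed and 1.10 FPKM in unstressed N2, or 1130.1-fold.

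The fold of gst-30 depends on its low level without stress. With 1 FPKM added to both libraries its log2 fold of 10.14 becomes 9.21. In the authors' deposited table the p-value of gst-30 in N2 is 0.0005, the largest that table lists, with a q-value, which is adjusted for the number of genes tested, of 0.0477. The VZ1 table, from fewer marked genes, reaches only to a p-value of 0.00035, and gst-30 is not in it. That gst-30 is listed in 1 strain was not tested as a difference between the strains, and its VZ1 levels are not given in the tables. Neither table of VZ1 against N2 lists it.

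The last pair, gst-35 (chromosome II, 15183809 to 15185279) and gst-39 (chromosome II, 15171130 to 15171812), had the lowest levels under stress. Stressed and unstressed VZ1 had 216 and 7.23 FPKM of gst-35, and stressed and unstressed N2 had 336 and 8.35 FPKM, rises of 29.9-fold in VZ1 and 40.2-fold in N2. Of gst-39 they had 276 and 32.7 FPKM in stressed and unstressed VZ1, and 309 and 25.4 FPKM in stressed and unstressed N2, rises of 8.44-fold in VZ1 and 12.1-fold in N2. In both genes the fold was the smaller one in VZ1. In the authors' deposited tables the q-value of gst-39 is 0.0274 in VZ1 and 0.00735 in N2, and that of gst-35 is 0.0111 in VZ1 and 0.00735 in N2.

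**Figure D1:**
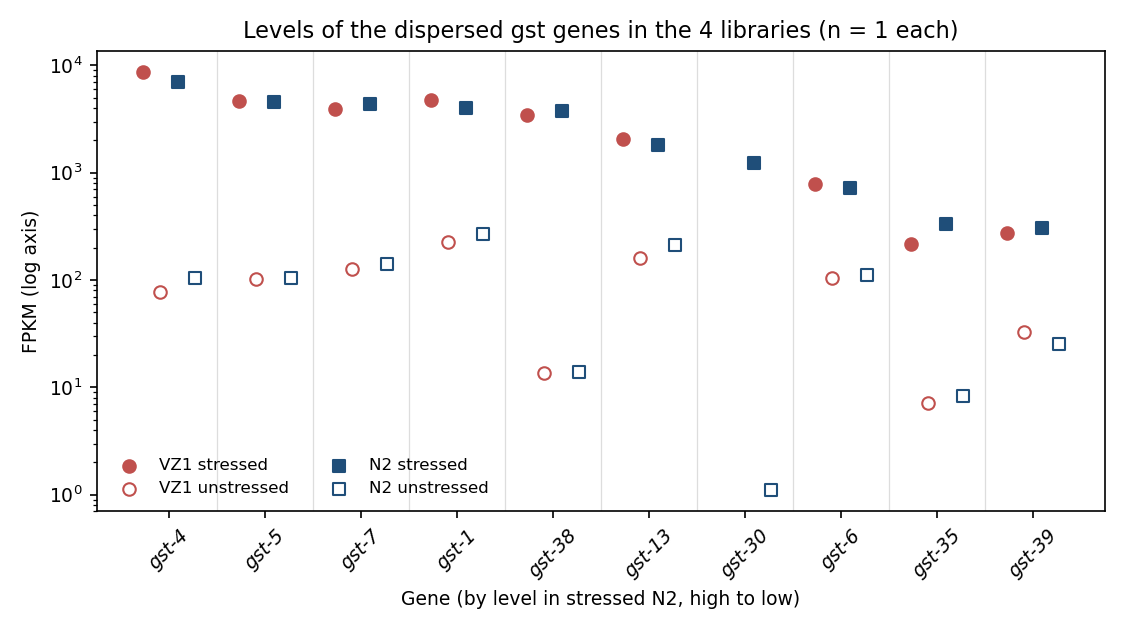
FPKM of each gene (log axis) in the 4 libraries, with circles for VZ1, squares for N2, filled symbols for stressed and open symbols for unstressed animals, 1 library per symbol and genes in order of their level in stressed N2. In every gene shown for both strains each stressed value lies above both unstressed values, from 8744 FPKM for gst-4 down to 216 FPKM for gst-35 in stressed VZ1. No VZ1 value is listed for gst-30.

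Members with similar levels before stress differed under stress. In unstressed N2 gst-4, gst-5 and gst-6 stood at 105, 106 and 111 FPKM, yet in stressed N2 they reached 7025, 4551 and 717 FPKM. In unstressed VZ1 the same 3 genes stood at 76.8, 103 and 106 FPKM, and in stressed VZ1 at 8744, 4669 and 779 FPKM. Among the genes of low level, gst-38 and gst-35 were at 13.6 and 7.23 FPKM in unstressed VZ1 and at 3439.5 and 216 FPKM in stressed VZ1. Between the highest and the lowest member the levels differed 40.4-fold in stressed and 31.05-fold in unstressed VZ1 (9 genes), and 22.8-fold in stressed and 247-fold in unstressed N2 (10 genes, 1 of them gst-30).

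Summed over the 9 genes listed in both strains, the level was 28906 FPKM in stressed and 849.6 FPKM in unstressed VZ1, a ratio of 34.02, and 26950 FPKM in stressed and 990.2 FPKM in unstressed N2, a ratio of 27.2. These 9 genes made up 50.9% of the summed FPKM of the 88 loci that were higher in stressed VZ1 and 48.4% of that of the 115 loci higher in stressed N2. With gst-30 the share in N2 was 50.6%. The sums cover listed loci only and are not shares of all RNA. They include the merged loci of gst-1 in VZ1 (4788 FPKM stressed) and of gst-5 in both strains (4669 FPKM in stressed VZ1, 4551 FPKM in stressed N2). What part of these values belongs to the other genes of the loci is unknown.

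Set beside the other loci that were higher under stress, the members had higher median levels in both conditions. Their median was 3439.5 FPKM in stressed and 103 FPKM in unstressed VZ1, against 204 and 9.25 FPKM for the 67 other loci with a value above 0 in both libraries. In N2 the median was 2780 FPKM in stressed and 105 FPKM in unstressed animals, against 151 and 9.36 FPKM for the 91 other loci. Without stress gst-35 (7.23 FPKM in VZ1, 8.35 FPKM in N2) and gst-30 (1.10 FPKM in N2) lay below the medians of the other loci. The median log2 fold of the members was 4.90 in VZ1 and 5.15 in N2, against 3.79 and 3.52 for those other loci. The log2 folds of gst-6 (2.88 in VZ1, 2.70 in N2) and gst-13 (3.69 in VZ1, 3.12 in N2) lay below the latter medians. So did that of gst-39 in VZ1 (3.08), while all other member folds lay above. Among the loci of each stress table, members took 6 of the 10 highest levels in the stressed library, but 4 of the 20 largest folds. Another 12 loci higher in stressed VZ1 and 14 higher in stressed N2 had 0 FPKM in the unstressed library. None of these is a member, and they were left out of the medians and of the ranking by fold. Leaving them out can lower the median fold of the other loci and raise the members' ranks by fold. The comparison is with marked loci, since no other gene has a value, and the members are marked too.

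**Figure D2:**
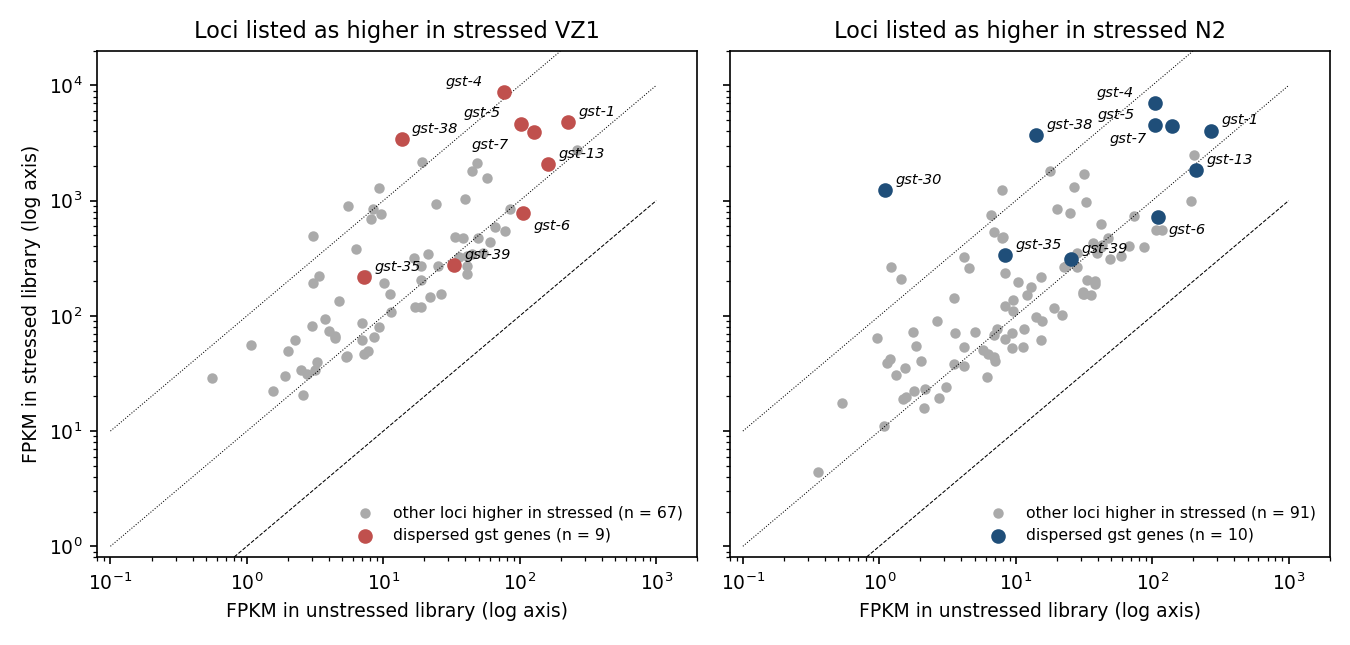
FPKM in the stressed library against FPKM in the unstressed library (both log axes) for the loci higher in stressed VZ1 (left) and stressed N2 (right) with values above 0 in both, with the members coloured and named. The dashed line marks equal levels and the dotted lines rises of 10-fold and 100-fold. In each panel gst-4 is the highest point, at 8744 FPKM in stressed VZ1 and 7025 FPKM in stressed N2, and gst-38 lies above the upper dotted line.

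Stress folds in the strains were compared as log2 fold in VZ1 minus log2 fold in N2, each taken within its own table, for the 9 genes in both. The stress tables share no library. The fold was larger in VZ1 for gst-4 (difference 0.77), gst-13 (0.57), gst-1 (0.51), gst-6 (0.18) and gst-5 (0.07). It was smaller in VZ1 for gst-7 (−0.02), gst-38 (−0.08), gst-35 (−0.43) and gst-39 (−0.52). The median difference of the 9 was 0.07, against 0.20 for the 57 other loci that rose in both strains. With the merged loci of gst-1 and gst-5 left out, the median of the other 7 turned to −0.018. No spread between replicates can be set against these differences, and none of them was tested.

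The median difference over all 73 genes with values above 0 in both stress tables, genes that fell and the members included, is 0.18. That median is the value of gst-6 itself, so gst-6 lies at 0 by construction. Measured against the median, gst-5 lies on the lower side, at −0.11, which is its distance from another member. The differences of gst-4, gst-13 and gst-1 come from both ends. Each had a lower listed level in unstressed VZ1 than in unstressed N2, at ratios of 0.729, 0.758 and 0.830, and a higher one in stressed VZ1 than in stressed N2, at ratios of 1.24, 1.13 and 1.18. For gst-1 the loci differ between the tables, as described above. These ratios set levels from separately normalised tables side by side. For loci that appear at the same position in the stress table and a strain table, the same library's FPKM differed between tables by a median ratio of 0.979 in unstressed N2 (7 loci) and 1.01 in stressed N2 (4 loci). No such check could be made for either VZ1 library, with 0 loci in both of its tables.

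**Figure D3:**
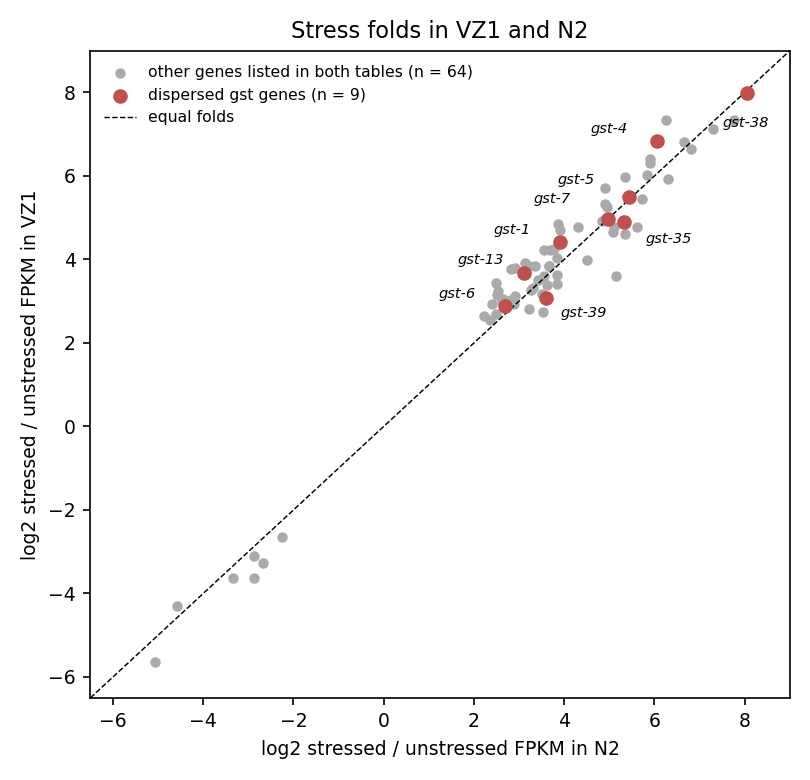
log2 of stressed over unstressed FPKM in VZ1 against that in N2 for the 73 genes with values above 0 in both stress tables, with the 9 members in red and a dashed line of equal folds. The members lie along the line from gst-6 (2.88 in VZ1 and 2.70 in N2) to gst-38 (7.98 and 8.06).

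**Figure D4:**
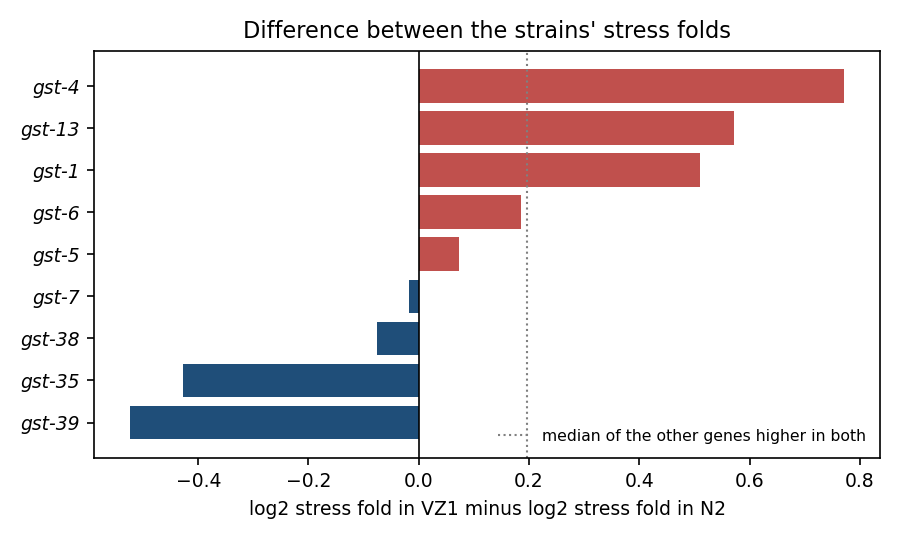
Difference of the log2 stress folds, VZ1 minus N2, for the 9 genes in both stress tables, red where the fold is larger in VZ1 and blue where it is larger in N2, each bar from 1 library per group and without an error. The dotted line is the median of the 57 other loci that rose in both strains, 0.20. Bars run from 0.77 for gst-4 to −0.52 for gst-39.

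The tables of VZ1 against N2 ask whether the genes differ between the strains at a given condition. None of the 10 genes is listed in either, where 0.508% of 14358 genes tested were marked between the stressed strains and 0.437% of 14419 between the unstressed strains. The smallest difference marked was 3.18-fold between the stressed and 3.96-fold between the unstressed strains. The side-by-side ratios of VZ1 to N2 for the 9 genes were all smaller than these, from 0.644 for gst-35 to 1.24 for gst-4 under stress and from 0.729 for gst-4 to 1.29 for gst-39 without stress. Without stress 8 of the 9 genes had the lower listed level in VZ1, and gst-39 the higher one. No difference of such a size is marked in either table, so that a missing entry does not show equal levels.

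RefSeq names 49 genes of the gst, gsto and gstk kinds in assembly WBcel235. Of these, 12 rose in VZ1, where 0.610% of all genes tested were marked as higher, and 14 rose in N2, where 0.799% were. None fell in either table. Most of those that rose are members, chosen because they were listed, so nothing is read from these counts. Beyond the 10 members, those of the 49 genes that rose are gst-12, gst-16 and gst-20 in both strains and gst-14 in N2. All are in the gst-12 cluster of 9 genes. Their log2 folds were 3.27 to 6.40 in VZ1 and 3.27 to 5.90 in N2, within the range of the members. Their levels under stress, at most 689.7 FPKM in VZ1 and 481 FPKM in N2, overlapped those of gst-35 and gst-39 and lay below those of the other members. No gsto (omega class) or gstk (kappa class) gene is listed in any of the 4 tables. How many of the family's genes were tested is unknown.

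The 10 genes are not evenly spread over the genome. On chromosome II, which has 26 of the 49 genes, 7 of the 10 members lie. There gst-6 and gst-7 are followed by gst-8 and gst-9, neither of which is in a table, and gst-30 lies 50.6 kb beyond gst-7. At the right of the chromosome gst-39 and gst-35, 11996 bp apart, belong to a run of 9 glutathione S-transferase genes (gst-26 to gst-35), of which the other 7 are in no table. On chromosome IV gst-4 follows gst-3 and gst-2, which are in no table either. Between them the 10 members have 18 different protein-coding genes next to them that are no members, and of these cls-2 and gskl-1 alone are in a stress table, both through a locus merged with a member. Reads that fit several of these related genes can be assigned to the wrong one or divided between them, and the tables do not show how this was handled, so that the levels of single members in such runs are uncertain.

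**Figure D5:**
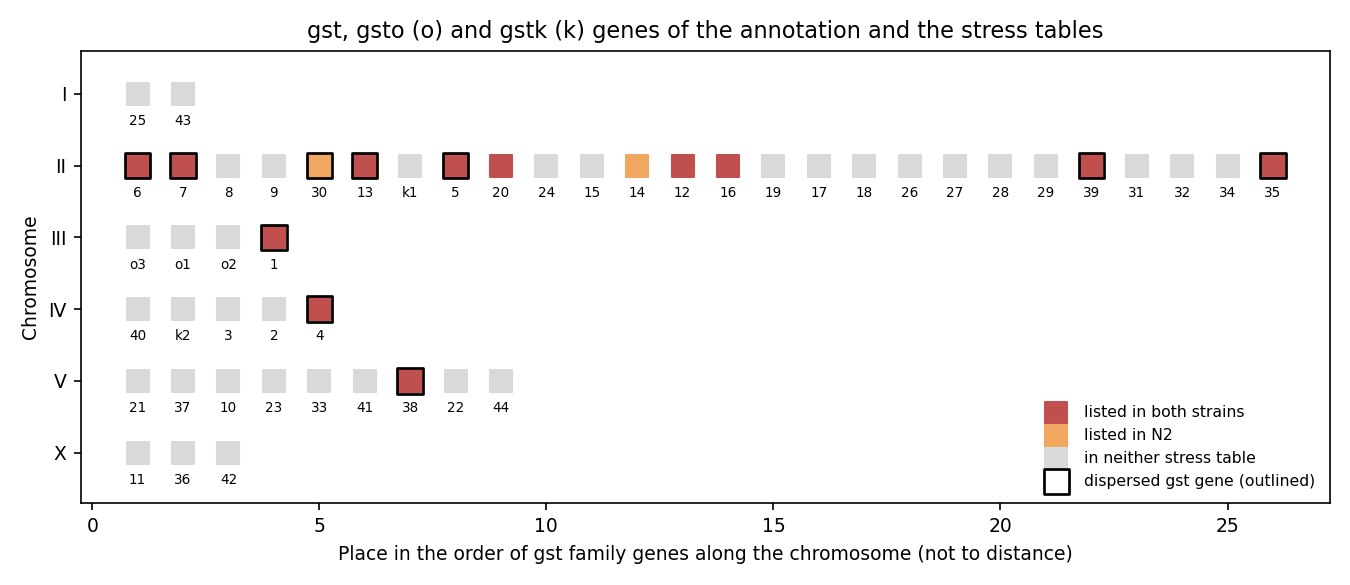
The 49 gst, gsto and gstk genes by chromosome (rows) and by their place in the order of family genes along it (not to distance), coloured red where both stress tables list the gene as higher, orange where that of N2 alone does and grey where neither does, with the 10 members outlined. Listed genes stand beside grey ones in all 3 runs of chromosome II.

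Few genes of the other steps of glutathione metabolism have values. Of 10 genes of glutathione synthesis and recycling, 2 rose in VZ1, and 1 rose and 1 fell in N2. Over all genes tested, 0.610% were marked as higher in stressed VZ1 and 0.799% in stressed N2. Marked as lower in stressed N2 were 36 of 14397 genes tested. The gene gcs-1, of the rate-limiting enzyme of glutathione synthesis, had 590 FPKM in stressed and 66.02 FPKM in unstressed VZ1 and is not in the N2 table. The cystathionine lyase family gene cbl-1 had 349 and 54.1 FPKM in stressed and unstressed VZ1, and 328 and 58.8 FPKM in stressed and unstressed N2. The gene cth-1, of a cystathionine gamma-lyase that makes cysteine, had 20.3 FPKM in stressed and 103 FPKM in unstressed N2, and no value in VZ1. Of 8 exporter genes of the MRP kind, whose proteins can carry conjugates out of cells, mrp-7 alone was listed, with 118.8 and 18.9 FPKM in stressed and unstressed VZ1 and 101 and 21.7 FPKM in stressed and unstressed N2. None of 8 glutathione peroxidase genes, 5 glutaredoxin genes or 10 genes of SKN-1 and its regulators, skn-1 and trx-1 among them, is in any of the 4 tables. Since trx-1 is not listed, the tables hold no level that checks the strain labels.

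Outside the family, the genes whose pair of stress folds lay nearest to the members' medians (log2 4.90 in VZ1 and 4.98 in N2 for the 9 genes in both tables) were F17B5.8, C17H12.6, dhs-8, dod-17 and tts-1. Likeness was measured as the straight-line distance between pairs of log2 folds, over 2 strains, and ran from 0.15 for F17B5.8 to 0.44 for tts-1. Among the members only gst-7 (0.06) and gst-35 (0.35) were as near to the medians, and gst-38 was the farthest, at 4.35. Nearness to the medians is therefore not likeness to each member. The gene dhs-8, of a short-chain dehydrogenase, had 94.3 and 3.73 FPKM in stressed and unstressed VZ1 and 89.996 and 2.64 FPKM in stressed and unstressed N2. The gene dod-17, known as a gene downstream of the insulin pathway's factor DAF-16, had 931 and 24.2 FPKM in stressed and unstressed VZ1 and 776 and 25.04 FPKM in stressed and unstressed N2. The long noncoding RNA gene tts-1 had 1810 and 44.7 FPKM in stressed and unstressed VZ1 and 983 and 32.9 FPKM in stressed and unstressed N2. Under stress tts-1 and dod-17 stood above gst-6, gst-35 and gst-39 in both strains, and below the other members listed. In both stressed libraries C17H12.6 and dhs-8 stood below every member listed. F17B5.8 did so in stressed N2, but in stressed VZ1 it stood above gst-35 (227 against 216 FPKM).

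The libraries are of whole animals, in which more RNA per cell and more cells of a type cannot be told apart. Of 12 tissue markers, only the intestinal yolk genes vit-2 and vit-6 are in a table. Over all genes tested, 36 of 14397 were marked as lower in stressed N2. Between the strains, 60 of 14419 were marked as lower in unstressed VZ1 and 70 of 14358 as lower in stressed VZ1. The genes vit-2 and vit-6 fell in stressed N2, to 28.8 and 51.8 FPKM against 186 and 236 FPKM in unstressed N2. Both were lower in unstressed VZ1 (9.51 and 6.69 FPKM) than in unstressed N2 (182 and 232 FPKM). In stressed VZ1 vit-6 had 12.6 FPKM, against 52.3 FPKM in stressed N2. Their part in the levels of the glutathione S-transferase genes was not tested. The depth of the libraries is unknown.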

How the data were processed

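Libraries of total RNA from whole worms were sequenced in 4 groups of 1 library. TopHat, Bowtie2, Cufflinks and ce10 are named in the submitters' processing notes. Versions, strandedness and annotation were not given in the sources used here. The authors computed FPKM separately for each pair of libraries and deposited them with p-values and q-values in 4 tables, per the file headers, and these hold marked loci only. Genes were matched on both name columns, and members and lists were chosen with earlier results of these data known. Folds are log2 of stressed over unstressed FPKM with no pseudocount, and no member has a value of 0. How many genes were tested was recovered as q times rank divided by p, a step tested on simulated data. No counts are given, and with 39 of 786 values between 0 and 1 FPKM, depth was not recovered, so no intervals are given. No test was made, and "rose" or "fell" means marked by the authors, whose test compares 2 libraries. RefSeq and Ensembl annotations of WBcel235 gave names, gene order and gene models, never positions. The genes named are the 10 members, genes merged with them, listed genes of the lists, and the 5 nearest in stress folds. Alternatives were pseudocounts of 1 and 0.1 FPKM, a minimum of 1 FPKM, merged loci left out, a q of at most 0.02, wider name matching, and centring. The planned motif search and protein comparison were not made. Python 3.11.15, pandas 2.3.3 and NumPy 2.4.6 were used.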

Additional observations from a re-analysis of the deposited data

How the results depend on the processing

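The counts of members listed, 9 in VZ1 and 10 in N2, were 7 and 9 with merged loci left out and 8 and 9 at an authors' q of at most 0.02. The other 2 settings, a minimum of 1 FPKM and wider name matching, gave the same counts. The median log2 stress fold in VZ1 (4.90) was 4.72 with a pseudocount of 1 FPKM, 4.88 with 0.1 FPKM and 4.93 at the stricter q. In N2 (5.15) it was 5.07 with a pseudocount of 1 FPKM and 4.98 both with merged loci left out and at the stricter q, which drop gst-5 and gst-30. The median difference between the strains' log2 stress folds (0.07) was 0.13 at the stricter q. It reversed to −0.018 with merged loci left out, since gst-1 and gst-5 then drop out. It also reversed to −0.11 when centred on the median of shared genes, where gst-5 (0.07) becomes −0.11. The shared genes include the members, and their median is the difference of gst-6 itself. A pseudocount of 1 FPKM lowered single log2 folds by at most 0.93, for gst-30. No paired analysis was possible because each group has 1 library, and for the same reason no library could be left out. Unknown depth limits the precision of low levels most, as for gst-30 in unstressed N2.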
